A study of Mus musculus with 16 samples.

Results

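The Th2 cytokine cluster is a stretch of mouse chromosome 11 that holds the genes of 3 type 2 cytokines, *Il4*, *Il13* and *Il5*, together with *Rad50* and *Kif3a*. Its open chromatin was taken as every ATAC-seq peak that overlapped the window from 20 kb before the first to 20 kb past the last of these 5 genes, chr11:53547379-53745106 on the mm10 build (197.7 kb). The window held 74 of the 476734 peaks in the lists of the 4 thymocyte stages. Merging peaks that shared at least 1 bp gave 30 of the 185978 merged regions of chromosomes 1 to 19. In ATAC-seq a transposase inserts adapters into accessible DNA, so a peak marks a place where chromatin was open.

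The thymocytes came from 4 wild type C57BL/6J mice, 9 weeks old, and flow cytometry separated them into 4 stages. Double negative cells (DN, CD4- CD8- CD3-) come first, followed by double positive cells (DP, CD4+ CD8+), and these give rise to CD4 single positive cells (SP4, CD4+ CD8- CD3+) and CD8 single positive cells (SP8, CD4- CD8+ CD3+). Each stage had 4 libraries, 1 per mouse, 16 in all. The reads of the 4 mice were pooled before peaks were called, so there is 1 peak list per stage, no spread between mice, and no test between stages. The depth behind a peak is not given in the lists, and a stage without a peak may still hold signal under the calling threshold. In pooled cells, a site that is open in fewer cells and a site that is less open in each cell cannot be told apart.

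IL-4 and IL-13 act in allergic and anti-parasite responses, partly through a shared receptor chain and STAT6, and IL-5 supports eosinophils. T helper type 2 cells secrete all 3, under the transcription factor GATA3, which thymocytes also need at several steps. *Rad50* codes for a DNA repair protein made in all cells, and *Kif3a* for a kinesin motor subunit that builds cilia. Both are neighbours of the cytokine genes by position rather than by function. Introns near the 3′ end of *Rad50* are known from work on helper T cells to hold a locus control region of the cytokine genes, and further elements are known between *Il13* and *Il4* and 3′ of *Il4*. No map of those elements was used here, so the regions are called by number, from 1 to 30 in chromosome order.

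In this order the genes are *Kif3a* (plus strand, chr11:53567379-53601967), *Il4* (minus strand, chr11:53602982-53618669), *Il13* (minus strand, chr11:53631324-53634702), *Rad50* (minus strand, chr11:53649519-53707319) and *Il5* (plus strand, chr11:53720794-53725106). The main coding transcript of *Il4* spans only chr11:53612460-53618669. The remaining 9.48 kb toward *Kif3a* belongs to a non-coding transcript of the gene and is called the 3′ side of *Il4*.

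The sequences below are those that the results turn on, each the base at the highest summit of a region with 100 bases on either side, read 5′ to 3′ on the plus strand of mm10. Region 26 (chr11:53719752-53719952) lies upstream of *Il5* and differed most between stages. Regions 19 (chr11:53655208-53655408) and 20 (chr11:53656824-53657024) lie in *Rad50* introns and were called only at DN and SP4. Region 16 (chr11:53627924-53628124), between *Il13* and *Il4*, was high and even at every stage. Regions 12 (chr11:53609700-53609900) and 10 (chr11:53605565-53605765) lie on the 3′ side of *Il4*. The *Il4* promoter is shown because it held no peak. It is the RefSeq sequence (GRCm38.p6) of the 200 bases before the start site, chr11:53618666-53618865, on the minus strand. Capitals mark matches on either strand to short consensus words for GATA factors (AGATAA or AGATAG or TGATAA or TGATAG), RUNX factors (TGTGGT or TGCGGT) and NFAT (GGAAAA).
Region 26: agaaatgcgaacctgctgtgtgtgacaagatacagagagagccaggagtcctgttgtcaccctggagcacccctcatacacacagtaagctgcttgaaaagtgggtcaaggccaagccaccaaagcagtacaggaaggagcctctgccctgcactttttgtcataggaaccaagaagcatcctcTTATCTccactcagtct
Region 19: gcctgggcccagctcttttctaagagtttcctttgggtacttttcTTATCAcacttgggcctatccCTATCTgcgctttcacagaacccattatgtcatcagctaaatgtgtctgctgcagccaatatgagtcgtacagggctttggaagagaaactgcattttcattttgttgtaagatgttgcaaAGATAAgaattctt
Region 20: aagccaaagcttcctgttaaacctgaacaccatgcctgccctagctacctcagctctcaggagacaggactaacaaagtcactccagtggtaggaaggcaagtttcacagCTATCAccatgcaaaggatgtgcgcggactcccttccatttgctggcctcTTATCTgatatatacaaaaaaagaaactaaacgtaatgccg
Region 16: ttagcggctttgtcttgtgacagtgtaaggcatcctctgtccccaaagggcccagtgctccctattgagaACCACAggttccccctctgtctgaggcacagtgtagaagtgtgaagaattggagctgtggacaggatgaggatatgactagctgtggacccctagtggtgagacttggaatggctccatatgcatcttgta
Region 12: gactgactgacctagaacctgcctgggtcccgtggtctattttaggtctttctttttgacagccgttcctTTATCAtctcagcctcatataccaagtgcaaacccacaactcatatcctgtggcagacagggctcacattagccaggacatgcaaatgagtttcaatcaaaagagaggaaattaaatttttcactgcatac
Region 10: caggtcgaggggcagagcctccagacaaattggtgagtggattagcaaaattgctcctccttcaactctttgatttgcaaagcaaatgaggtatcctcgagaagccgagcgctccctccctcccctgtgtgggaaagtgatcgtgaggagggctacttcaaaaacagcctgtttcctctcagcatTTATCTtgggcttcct
*Il4* promoter: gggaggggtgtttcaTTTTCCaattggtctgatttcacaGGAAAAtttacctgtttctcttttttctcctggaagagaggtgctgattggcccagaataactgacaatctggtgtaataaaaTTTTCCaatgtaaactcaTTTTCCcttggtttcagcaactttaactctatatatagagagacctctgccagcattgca

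Region 19 held 3 GATA matches within its window, and region 20 held 2. The window of region 4, a DN-only region in a *Kif3a* intron, also held 2. Across all 185978 regions, 3.78% of such windows held 2 or more GATA matches and 0.476% held 3 or more. The *Il4* promoter held 4 NFAT matches and no GATA or RUNX match, and 0.0183% of the 32851 RefSeq promoters held 4 or more NFAT matches in the same 200 bases. NFAT is the factor that T cell receptor signalling brings to the nucleus. Regions 12, 10 and 26 held 1 GATA match each, and region 16 held 1 RUNX match. Counted over whole regions, regions 10, 19 and 25 held 3 GATA matches each, and regions 20 and 30 held 2 each. Several GATA matches were thus not particular to the regions called at DN and SP4 alone. A match describes the letters of a window and says nothing of whether a factor was bound there.

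Each stage had more peaks per length in the cluster than over chromosomes 1 to 19. The DN list held 25 peaks in the window (12.6 per 100 kb, against 6.1 over chromosomes 1 to 19), the SP4 list 19 (9.61 against 4.67), the SP8 list 16 (8.09 against 4.24) and the DP list 14 (7.08 against 4.35). Peaks covered 3.94% of the window at DN, 3.83% at SP4, 2.84% at SP8 and 2.8% at DP, where 1.36% to 1.81% of chromosomes 1 to 19 was covered. DN thus had the most peaks and DP the fewest, while SP4 covered nearly as much sequence as DN because its peaks were wider, with a median width of 397 bp against 255 bp. The DN list was also the longest of the 4. When the same number of peaks, 104411, was kept from each list, DN dropped to 16 peaks, SP4 kept 18, SP8 16 and DP 14.

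**Figure D1:**
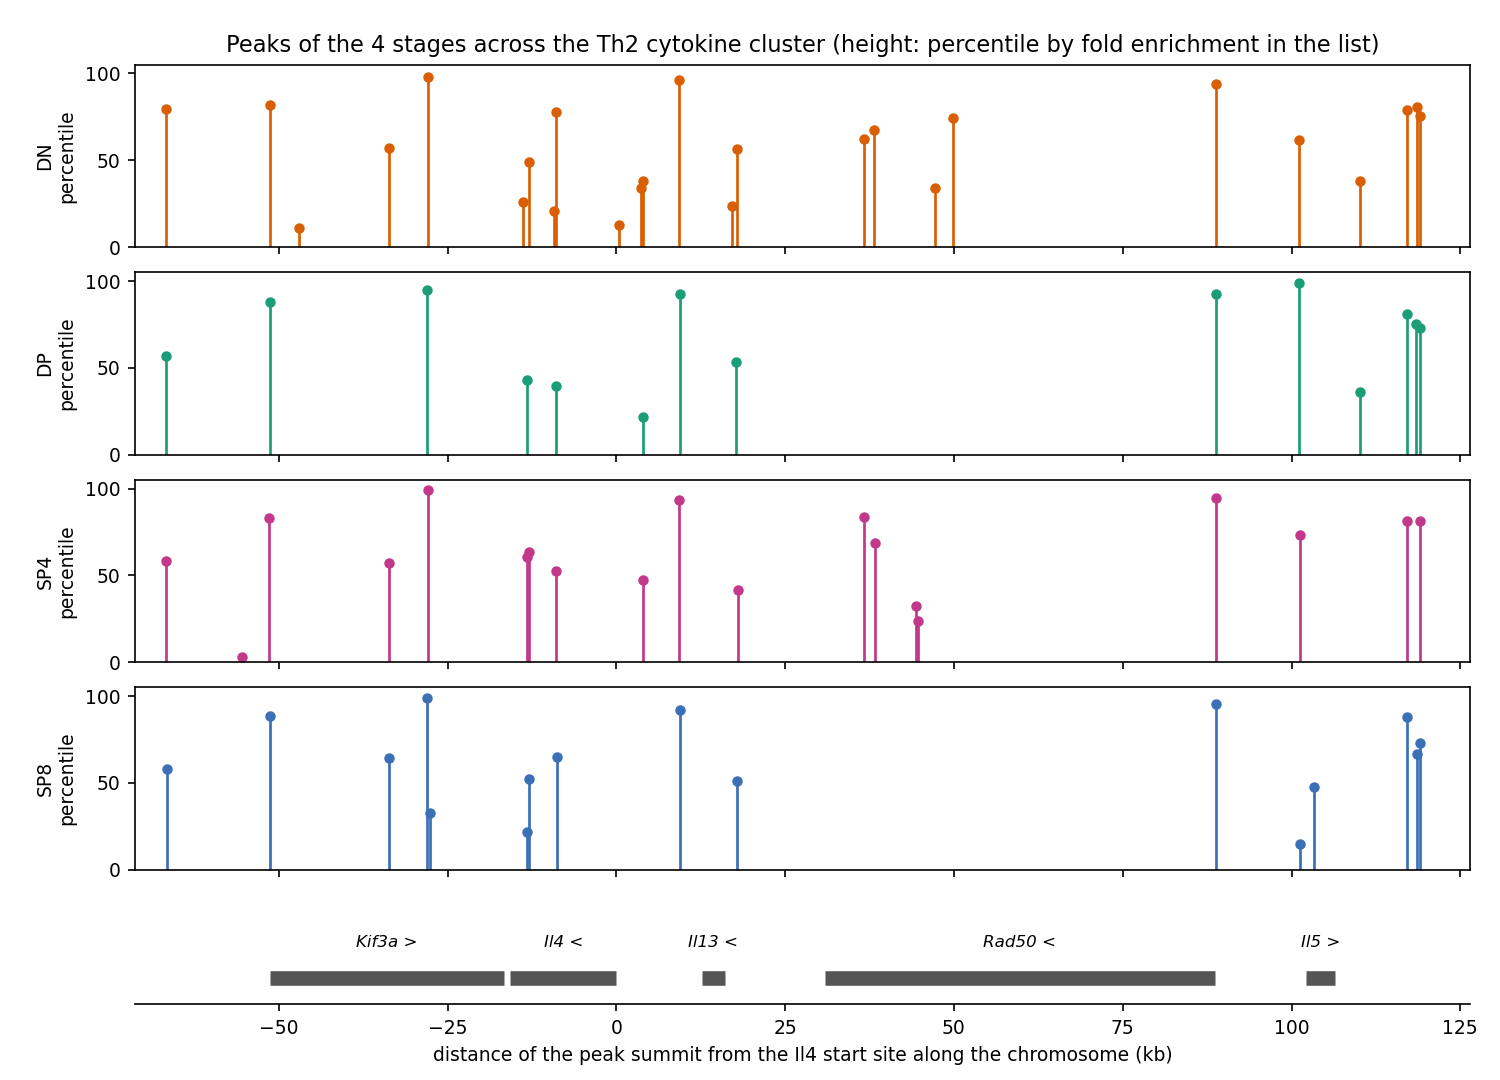
Peaks of the Th2 cytokine cluster at DN, DP, SP4 and SP8, each drawn at its summit. The x axis is the distance from the *Il4* start site along the chromosome (kb) and the y axis the percentile of the peak by fold enrichment within its stage's list. Grey bars are gene bodies, with > for the plus and < for the minus strand. The tall peak upstream of *Il5* is seen at DP, and it is low at SP8. Apart from the peak over its start site, *Rad50* has no peak at DP or SP8.

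Among the 30 regions, 10 were called at all 4 stages (33.3%, 95% Wilson interval 19.2 to 51.2, counting error only), close to the 34.1% of all merged regions. Single-stage regions numbered 13 (43.3%, against 38.5% of all regions). Of these, 8 were called at DN alone (26.7% against 21.7%), 3 at SP4 alone (10% against 7.39%), 2 at SP8 alone (6.67% against 4.21%) and 0 at DP alone, where 5.17% of all regions fell and the interval for 0 of 30 reaches 11.4%. DN and SP4 without the others shared 2 regions (6.67% against 2.79%). Read by stage, 24 regions were called at DN (80% against 75.7%), 19 at SP4 (63.3% against 58.3%), 15 at SP8 (50% against 53%) and 13 at DP (43.3% against 53.9%). A further count, of regions called at neither DP nor SP8, gave 13 (43.3% against 31.9%). Every one of these genome-wide shares lay within the interval of the cluster's own share, so at 30 regions no difference in the mix of stages was larger than the counting error. Where each kind of region lay along the cluster is described below, and whether they were spread evenly was not tested.

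**Figure D2:**
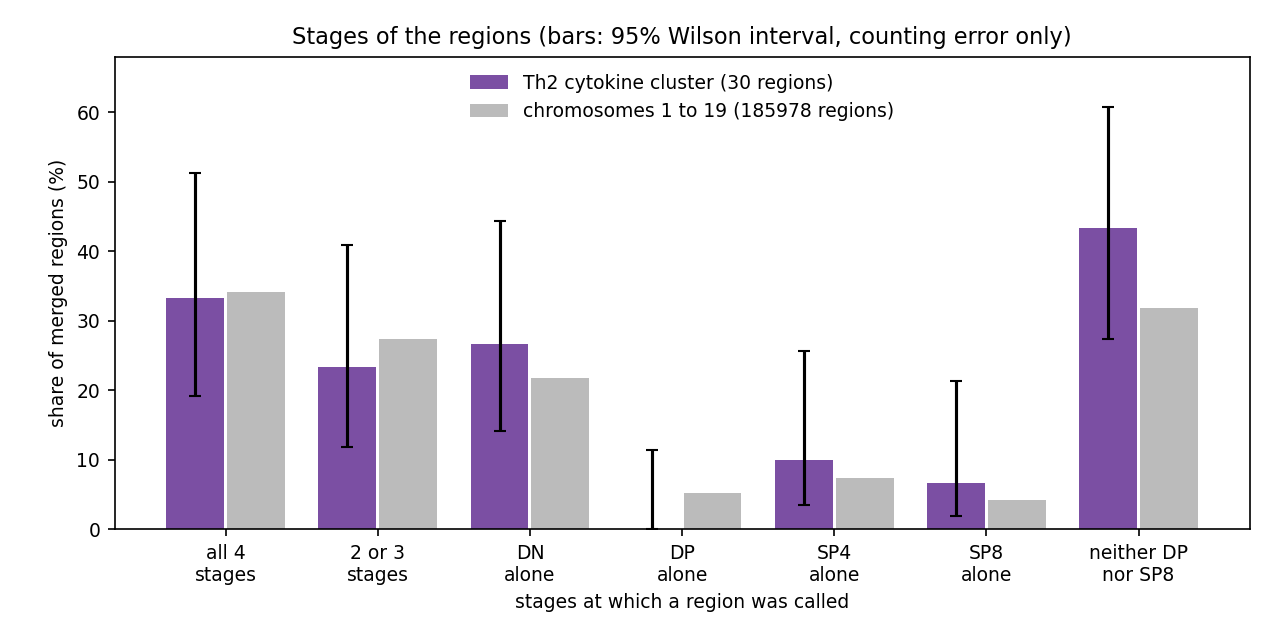
Share of merged regions (y axis, %) called at the stages named on the x axis, for the 30 regions of the cluster (purple) and the 185978 regions of chromosomes 1 to 19 (grey). Error bars are 95% Wilson intervals over the 30 regions and cover counting error only. Each grey bar ends within the interval beside it.

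Peak height was measured as fold enrichment over local background at the summit, or as the percentile of that ratio within the list of its stage. Regions called at all 4 stages were wide (median 524 bp) and high (median of the highest percentile 88.3), and single-stage regions narrow (129 bp) and low (25.9). The same was seen over the genome, with 465 bp and 80.9 for regions of 4 stages and 141 bp and 24.9 for single-stage regions. Among the 13 single-stage regions only region 24, in *Rad50*, stood above the middle of its list.

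**Figure D3:**
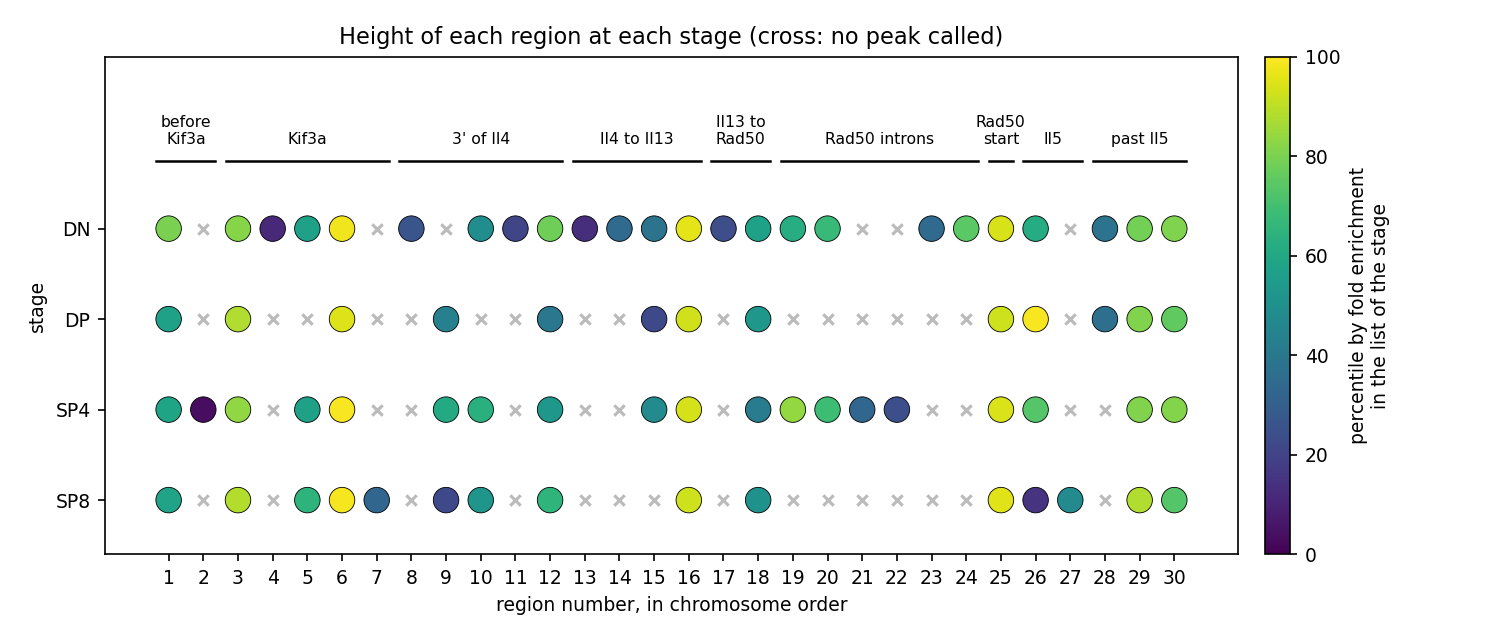
Each of the 30 regions (x axis, numbered along the chromosome) at each stage (y axis). A circle is a called peak, coloured by its percentile within the list of the stage (colour bar, 0 to 100), and a grey cross means that no peak was called. Regions 19 to 24, in the *Rad50* introns, carry circles only at DN and SP4.

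At *Il4*, no peak of any stage lay within the body of the coding transcript, 6.21 kb long. The peak nearest to its start site was region 13 (chr11:53618958-53619093), 289 bp upstream and called at DN alone at the 12.9 percentile with a fold enrichment of 3.33. From the same start site the nearest SP8 peak was 8706 bp away, the nearest SP4 peak 3888 bp and the nearest DP peak 3875 bp. The 200 bases before the start held no peak at any stage, and within 1 kb of it only DN had one, low in its list. Region 13 was lost when equal numbers of peaks were kept.

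The 3′ side of *Il4* held 5 regions in 9.48 kb, all in introns of the non-coding transcript. Region 12 (chr11:53609697-53609963), 8.87 kb from the *Il4* start, was the highest of them at DN and SP8, while region 10 was the highest at SP4 and region 9 at DP. Its fold enrichment was 4.68 at DP, 6.25 at SP4, 8.86 at SP8 and 10.7 at DN, which placed it at percentiles 39.8, 52.8, 65.2 and 78. The highest value was 2.30 times the lowest, and 22.1% of the 63369 regions of 4 stages differed as much or more. Near 13 kb from the *Il4* start, 2 regions lay only 60 bp apart. Region 9 (chr11:53605326-53605551) was called at DP, SP4 and SP8, with fold enrichments of 4.91, 7.48 and 3.84, and not at DN. Region 10 (chr11:53605612-53606032) was called at DN, SP4 and SP8, with fold enrichments of 5.54, 8.03 and 6.42, and not at DP. SP4 was the highest stage of both neighbours, and counting peaks within 100 bp of each other as 1 region joined them into a region of all 4 stages. Regions 8 and 11 were DN-only, at percentiles 25.9 and 20.7, and both were lost at equal numbers of peaks.

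Between *Il4* and *Il13*, 12.65 kb held 4 regions. Region 16 (chr11:53627670-53628242), 9.36 kb upstream of *Il4* and on the 3′ side of *Il13*, was the highest region between *Kif3a* and the *Rad50* start. Its fold enrichment was 21.6 at DN, 20.9 at SP4, 20.3 at SP8 and 18.5 at DP, at percentiles 96, 93.6, 92.2 and 92.6. The highest value was 1.17 times the lowest, and 94.7% of regions of 4 stages differed as much or more. A site of similar height at every stage thus stood between *Il4* and *Il13*, while the *Il13* body, like that of *Il4*, held no peak at any stage. The other regions were low. Region 15 (chr11:53622544-53622758) was called at DN, DP and SP4 with fold enrichments of 4.66, 3.74 and 5.69, and its neighbour region 14 at DN alone at percentile 34.3.

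At *Il13*, the peak nearest to the start site was DN-only region 17, 977 bp upstream at percentile 23.5, which was lost at equal numbers of peaks. Region 18 followed 1.88 kb upstream of the start and was called at every stage. It had fold enrichments of 6.39 at DN, 6.33 at SP8, 5.85 at DP and 5.13 at SP4, near the middle of each list (percentiles 56.7, 51, 53.1 and 41.7). The stages were close, with the highest 1.25 times the lowest. Region 18 had a GC content of 64.9% and 42 CpG dinucleotides, where the median GC content was 49.2% over the 30 regions and 51% over all regions. Only the *Kif3a* and *Rad50* start regions held more CpG dinucleotides, 72 and 77.

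At *Rad50* the introns were marked at DN and SP4. Its start site lay in region 25 (chr11:53706647-53707681), 1035 bp wide and called at every stage, with fold enrichments of 23.4 at SP8, 21.6 at SP4, 19.4 at DN and 18.4 at DP. These were percentiles 95.3, 94.3, 94 and 92.5, so the promoter was high at every stage. Within the introns lay 6 further regions, carrying 4 DN and 4 SP4 peaks and 0 DP and 0 SP8 peaks. Of all merged regions, 31.9% were called at neither DP nor SP8, and these 6 are neighbours in 1 gene. They all fell in the 3′ part of the gene, in introns 20 to 22 of 24, and the next 38.1 kb up to the start site held no peak, the longest gap of the window.

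Region 19 (chr11:53655074-53655520), in intron 22, had a fold enrichment of 7.14 at DN (percentile 62.3) and 14.2 at SP4 (percentile 83.6). Region 20 (chr11:53656678-53657190), in intron 21, had 8.06 at DN (67.4) and 9.17 at SP4 (68.7). Neither had a peak at DP or SP8. Region 19 was higher at SP4 than at DN, while region 20 was of similar height at both, 1.14 times apart. Of the 5197 regions called at DN and SP4 alone, with a median highest percentile of 44.1, 4.85% were as high as region 19 and 15.1% as high as region 20. These are the windows with 3 and 2 GATA matches printed above. Region 24 (chr11:53668408-53668578), in intron 20, was DN-only with a fold enrichment of 9.76, at percentile 74.6. The median percentile of all 40393 DN-only regions was 30.2, and 5.73% were as high as region 24. The remaining 3 were low, with regions 21 and 22 called at SP4 alone (percentiles 32.6 and 24) and region 23 at DN alone (34.3). The alternatives run only removed or regrouped called peaks, so none could add a DP or SP8 peak to the *Rad50* introns. A looser threshold was not run. Keeping equal numbers of peaks removed region 23 and left the other 5 as they were.

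**Figure D4:**
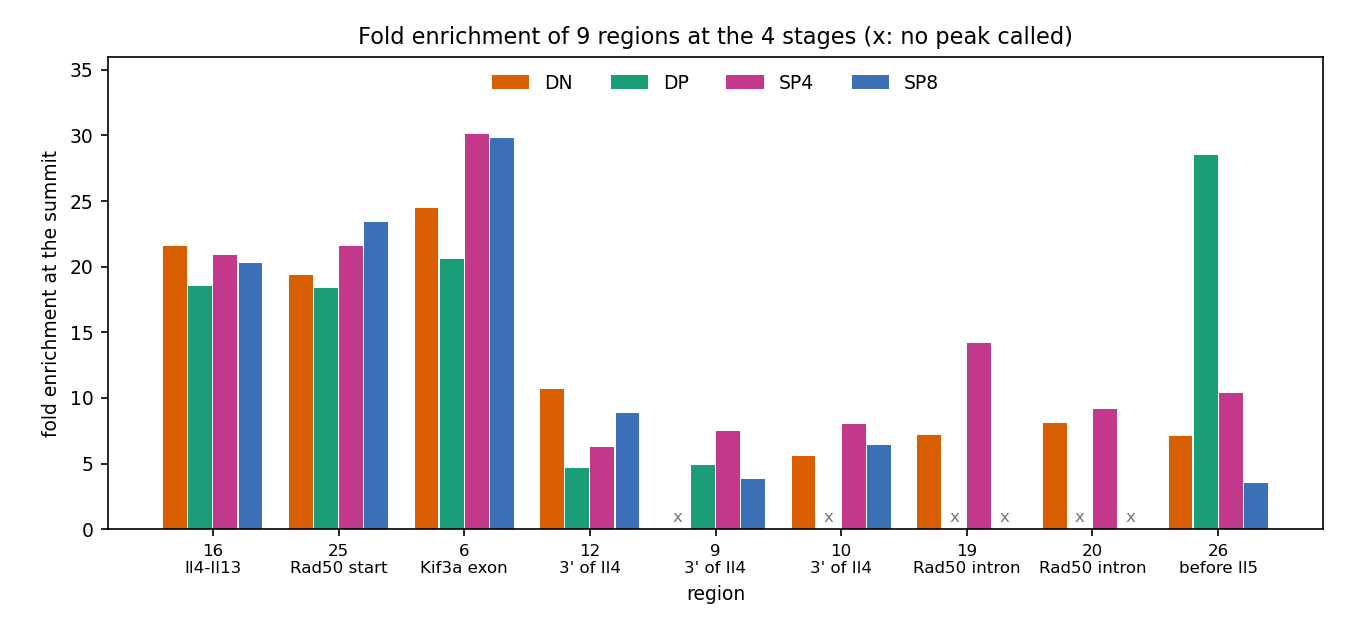
Fold enrichment at the summit (y axis) of 9 regions (x axis) at DN, DP, SP4 and SP8, with x where no peak was called. There is 1 pooled list per stage and so no error bar. Regions 16 and 25 are even, regions 19 and 20 have bars at DN and SP4 only, and the DP bar of region 26, at 28.5, is far above its SP8 bar, at 3.49.

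At *Il5* the order of the stages was different. Region 26 (chr11:53719657-53720054), with its highest summit 942 bp upstream of the *Il5* start, was called at every stage. Its fold enrichment was 28.5 at DP, 10.4 at SP4, 7.10 at DN and 3.49 at SP8, at percentiles 98.9, 73.4, 61.7 and 15. DP was the highest stage and SP8 the lowest, 8.16-fold apart. The median of this ratio over the 63369 regions of 4 stages was 1.67, and 56 of them (0.0884%) reached that of region 26. A DP peak above the 95th with an SP8 peak below the 25th percentile was found in 25 of them (0.0395%). Of the 10 regions of 4 stages in the cluster it was the only 1 that was highest at DP by percentile of fold enrichment, and by percentile of q-value region 3 was as well. Of all regions of 4 stages, 21.5% were highest at DP by fold enrichment. Within *Il5*, region 27 (chr11:53721914-53722037), in intron 2 of 3, was called at SP8 alone at percentile 47.5 with a fold enrichment of 5.89. SP8 therefore had a peak in the gene body at the stage where the upstream region was lowest.

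*Kif3a* held 5 regions. Its start site lay in region 3 (chr11:53567162-53568017), shared with the start of the neighbouring transcript A430108G06Rik, with fold enrichments of 17.5 at SP8, 15.4 at DP, 14.1 at SP4 and 12 at DN (percentiles 88.4, 88.2, 83.3 and 81.7). The highest region of the cluster at DN, SP4 and SP8 was not a promoter but region 6 (chr11:53590333-53590807), which covered the 9 bp exon 10 of 18. Its fold enrichment was 30.1 at SP4, 29.8 at SP8, 24.5 at DN and 20.6 at DP, at percentiles 98.9, 98.7, 97.7 and 94.8. Region 5 (chr11:53584926-53585120), in intron 8, was called at DN, SP4 and SP8 at percentiles 56.9, 56.9 and 64.6 with summits within 2 bp of each other, and not at DP. Regions 4 (DN alone, percentile 11) and 7 (SP8 alone, 32.8) were low.

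The flanks held 5 regions. Before *Kif3a*, region 1 (chr11:53551768-53552192) was called at every stage, highest at DN (percentile 79.7) and between 56.8 and 58.3 at the others. Region 2, called at SP4 alone at percentile 3.14, was the lowest peak of the cluster and the only region lost at a q-value of at most 0.001. Past *Il5*, regions 29 (chr11:53735621-53736051) and 30 (chr11:53736962-53737898) were called at every stage, between percentiles 73.2 and 88.2 by the highest peak of each stage. Region 30 held 7 peaks, 2 each at DN, DP and SP8 and 1 wide peak at SP4. Region 28 was called at DN and DP, at percentiles 37.9 and 36.1. Just outside the window, the nearest regions were both DN-only, 8261 bp before it at percentile 21.6 and 1486 bp past it at 11.8. Regions 1 and 30, the nearest within it, lay 4389 and 7208 bp from its edges.

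Set side by side, 5 of 5 genes had a DN peak within 1 kb of a start site, against 72.8% of the 20807 protein-coding genes. The number was 3 of 5 at DP (67.6%), SP4 (65.9%) and SP8 (65%), where *Il4* and *Il13* had none. At equal numbers of peaks the DN peaks of both were lost, which left 3 of 5 at DN too. *Rad50*, *Kif3a* and *Il5* had one at every stage. Among genes known to act on the cluster in other T cells, all 16 listed factors that promote type 2 cytokine expression, *Gata3*, *Stat6*, *Maf* and *Nfatc1* among them, had a start site peak at each stage, and so did all 12 listed factors that restrain it, such as *Runx3*, *Tbx21* and *Bcl6*. Of 11 receptor and signalling genes, 10 had such a peak at DN, 9 at SP4 and 8 at DP and SP8. The prostaglandin receptor gene *Ptgdr2* had none, that of the IL-33 receptor, *Il1rl1*, had one at DN and SP4, and *Csf2rb*, whose product is the shared chain of the IL-5 receptor, at DN alone.

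The stages were checked against marker genes, since cells other than T cells can use the cluster. All 10 of 10 T lineage markers had a start site peak at each stage. For mast cells and basophils 2 of 5 had one at DN and 1 of 5 elsewhere, with *Fcer1a*, *Ms4a2* and *Cpa3* at none. For type 2 innate lymphoid cells the counts were 4, 3, 4 and 3 of 5 at DN, DP, SP4 and SP8, and for natural killer T and innate-like T cells 5, 5, 4 and 4 of 5. Myeloid markers had 5 of 5 at DN and 3 of 5 at the other stages, natural killer cell markers 4 of 5 and erythroid markers 3 of 4 at every stage. Of the 20807 protein-coding genes, 72.8% had a start site peak in the DN list and 65% to 67.6% in the other lists. Counts of 3 or 4 of 5 and of 3 of 4 are thus near the share of genes in general. Such counts do not by themselves mark a cell type. Whether cells of these types contributed to the DN and SP4 peaks of *Rad50* or to the DN peaks at *Il4* and *Il13* was not tested.

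Other cytokine gene loci, cut in the same way, had the fewest or joint fewest peaks at DP in 7 of 7 cases, as the cluster did. The *Il2* and *Il21* locus had 16.4 peaks per 100 kb at SP4, 13.1 at DN, 10.5 at SP8 and 6.57 at DP. The *Ifng* and *Il22* locus had 8.54 at DN, 7.47 at SP4 and SP8 and 3.92 at DP. The *Il10* locus came closest to the Th2 cytokine cluster in number, with 30 regions and 11 called at all 4 stages, and had 13.7 peaks per 100 kb at DN, 12.6 at SP4 and 9.84 at DP and SP8. The Th2 cytokine cluster, with 12.6, 9.61, 8.09 and 7.08 at DN, SP4, SP8 and DP, lay between the *Ifng* and *Il10* loci at each stage. The *Csf2* and *Il3* locus, farther along the same chromosome, also had more peaks at DN and SP4 than at DP and SP8, with 18.3 at SP4, 16.7 at DN and 10 at DP and SP8. So did the *Il2*, *Il10*, *Il9* and *Il17a* loci, and chromosomes 1 to 19 as a whole. The *Il9* locus had 23.3 at DN, 18.6 at SP4, 14 at SP8 and 9.31 at DP. The *Ifng* and *Tnf* loci did not have this order, so it was not particular to the Th2 cytokine cluster or its chromosome. With 1 list per stage none of these differences has a test.

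**Figure D5:**
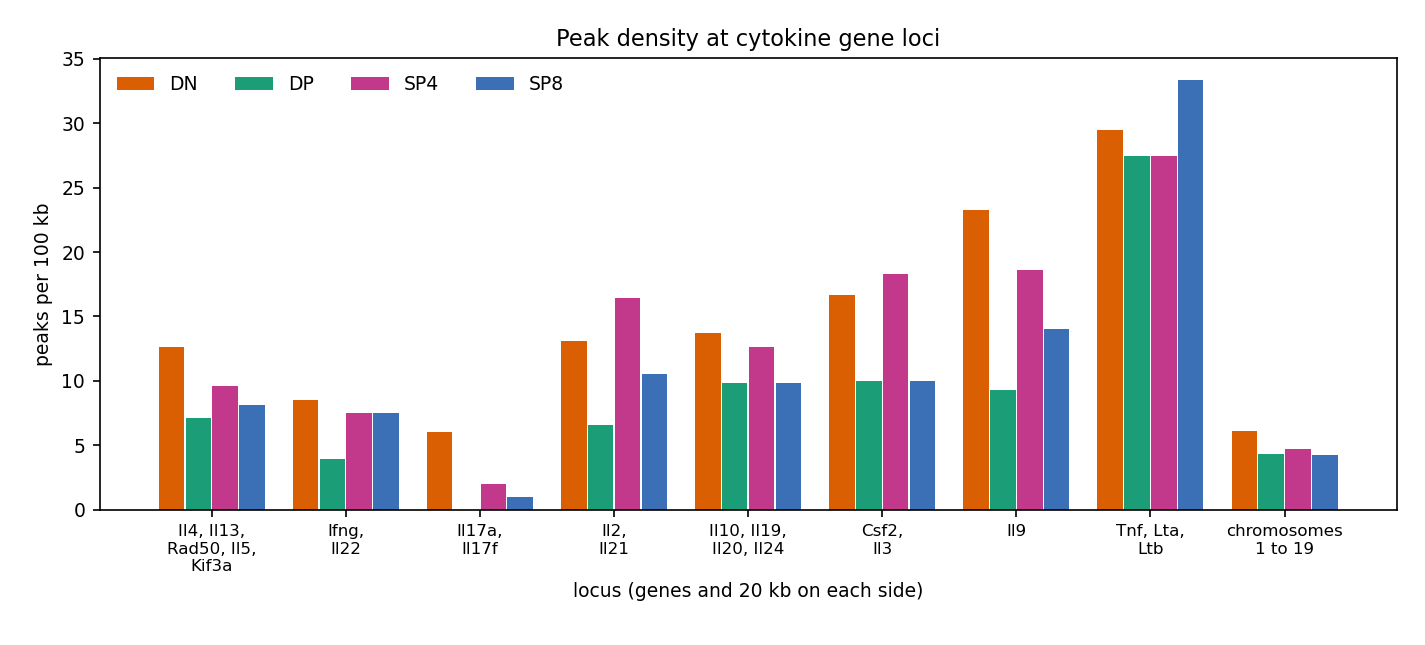
Peaks per 100 kb (y axis) at DN, DP, SP4 and SP8 in the Th2 cytokine cluster, 7 other cytokine gene loci cut with 20 kb on each side, and chromosomes 1 to 19 (x axis). DP has the lowest bar of the Th2 cytokine cluster at 7.08, and the *Il17a* and *Il17f* locus has no DP peak.

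Consensus words were also counted over whole regions. GATA words were found in 13 of the 30 regions (43.3%, against 31.3% of all regions), and in 13 of the 30 windows with 100 bases on either side of the highest summit (43.3% against 23.8%). ETS words (CCGGAA or CAGGAAG) were in 13 regions (43.3% against 30.8%), MAF words (TGCTGA) in 10 (33.3% against 25.3%) and AP-1 words (TGANTCA) in 6 (20% against 9.95%). In the summit windows these were close to or below the shares of all regions, with ETS words at 26.7% against 24.8%, MAF words at 16.7% against 18.6% and AP-1 words at 6.67% against 7.2%. RUNX words were in 10 regions (33.3% against 35.1%), E-box words (CAGCTG or CAGGTG) in 12 (40% against 45.2%), words of TCF7 and LEF1 (CTTTGAA or CTTTGAT or CTTTGTT) in 4 (13.3% against 18.4%) and NFAT words in 5 (16.7% against 17.1%). In the summit windows RUNX words were at 16.7% against 28.3% and words of TCF7 and LEF1 at 10% against 13.9%. E-box words there were at 40% against 37.1% and NFAT words at 16.7% against 11.5%. The spaced STAT6 word, TTC and GAA 4 bases apart, was in 1 region (3.33% against 6.74%), and CTCF matches were in 2 (6.67% against 3.24%), regions 5 and 30. Within the *Rad50* introns, GATA words were in regions 19 and 20, called at DN and SP4, and in region 22, called at SP4 alone. The SP4-only region 21 and the DN-only regions 23 and 24 held none. Some of these words overlap each other, as NFAT and ETS words do, and the counts are a description.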

How the data were processed

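ATAC-seq peaks of DN, DP, SP4 and SP8 thymocytes were analysed as 1 list per stage, with stages taken from the sample labels. The authors aligned the reads to mm10 with BWA, capped the libraries at a common depth, pooled the 4 mice of a stage and ran MACS2 at 5% FDR. Fold enrichment, a ratio over local background at the summit, and the −log10 q-value were deposited by the authors for each peak. Pooling hides the spread between mice, and a peak under the threshold counts as not called.

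From these lists, peaks sharing at least 1 bp were merged, and percentiles of fold enrichment were taken within each list (python 3.11.15, pandas 2.3.3, numpy 2.4.6, scipy 1.17.1, pysam 0.24.0). Genes and start sites came from GENCODE M21, promoters reached 200 bp upstream of start sites, and sequences came from the RefSeq GRCm38.p6 genome, which is mm10. Motifs were matched without mismatch on both strands. Coordinates count from 1.

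Named in full were the regions at or within 1 kb of start sites, all regions of 4 stages, single-stage regions at or above percentile 50, and the highest region of each segment and stage. The other regions are named with fewer values, some after their values were seen. The members and gene lists were chosen with earlier results of these data known. On simulated lists, 5000 of 5000 sites received their true stages. Those sites lay far apart and the peaks of each shared a summit. The simulation therefore did not check close neighbours such as regions 9 and 10. Alternatives were a stricter q-value, equal numbers of peaks per list, other windows, merging rules, promoter lengths, height measures and motif windows. Reads, footprints and single mice were not analysed here, and some values and a sequence are not reported here.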

Additional observations from a re-analysis of the deposited data

How the results depend on the processing

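Keeping 104411 peaks of each list moved the DN peaks of the cluster from 25 to 16, their density from 12.6 to 8.09 per 100 kb and the single-stage regions from 13 to 6, while 10 regions remained called at all 4 stages. The regions lost were 2, 4, 8, 11, 13, 14, 17 and 23, and the DN calls of regions 15 and 28 were lost too. With no flank the DP peaks fell from 14 to 9. With a flank of 50 kb there were 46 DN, 29 DP, 30 SP4 and 27 SP8 peaks in 51 regions, 18 of them of all 4 stages and 22 of a single stage, by the construction of the wider window. A promoter of 1000 bp put 5 regions at start sites in place of 2. The other 43 alternatives of these summary values, a q-value of at most 0.001, summit membership and other merging among them, moved them by less than 1.5 times. The highest stage was the same by q-value percentile in 15 of the 17 regions called at more than 1 stage, with 3 and 30 as the exceptions. The motif window with 100 bases on either side was chosen after seeing the data.

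Depth limits what a missing peak shows, since a site under the threshold cannot be told from a closed one. No paired analysis was possible because the deposited lists pool the mice of each stage, and leaving out a mouse was not run for the same reason.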
